A study of Arabidopsis thaliana with 11 samples.

Results

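The 33 genes described here are the plastid-encoded genes for the photosynthetic electron transport chain, the chloroplast ATP synthase and Rubisco in Arabidopsis thaliana. They were chosen by name and genome: probe sets annotated to 1 gene of the plastid genome whose lower-case symbol begins with psa, psb, pet or rbcL, together with atpA, atpB, atpE, atpF, atpH and atpI. The rule used no measured value. The array names 69 plastid genes in all, among 13513 probe sets that name 1 gene and 22810 probe sets on the array, and all 33 genes of the RefSeq plastid annotation that fit the rule are on it. They fall into 5 complexes: photosystem I (5 genes), photosystem II (15), the cytochrome b6f complex (6), ATP synthase (6) and Rubisco (1).

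All 11 samples were total RNA of untreated Col-0, a wild-type laboratory accession, hybridised to ATH1 oligonucleotide arrays. Flowers, open ones together with closed buds, were taken at 29 days (4 arrays). The top of the inflorescence stem, with siliques and pedicels removed, was taken at the same age (4 arrays), and rosette leaves were taken at 15 days (3 arrays), so leaf differed from the other organs in age as well. Plants of every group grew under a 16 h photoperiod at 125 umol m-2 s-1, at 25 C during the day and 20 C at night. Titles carried a code, GH or GC, with 2 arrays of each in flower and stem and 2 GH and 1 GC arrays in leaf. A greenhouse was recorded for the leaf GH arrays alone and a controlled system for all others, so the meaning of the code is not settled. Arrays are called here by organ, code and replicate number, as in stem GH 1.

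Chloroplasts keep a small genome of their own, which encodes core subunits of each photosynthetic complex, while the nucleus encodes the remaining subunits. Photosystem II extracts electrons from water, the cytochrome b6f complex passes them on and pumps protons, photosystem I reduces ferredoxin, and ATP synthase uses the proton gradient. Rubisco fixes carbon dioxide. Most plastid genes are transcribed together in polycistronic units whose RNAs are then cut, trimmed, spliced or edited, and plastid mRNAs carry no stable poly(A) tail. Each organ was measured in bulk, so fewer chloroplast-rich cells and less plastid RNA per cell cannot be told apart.

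The marker genes followed the organ labels. They were chosen with earlier results of these data known, so they are no independent check of the labels. The summed signal of 5 anther and pollen genes was 5451 to 7211 in flower, 31.0 to 57.0 in stem and 32.4 to 45.9 in leaf. For the 3 measured of 5 secondary wall genes it was 78.2 to 112 in flower, 735 to 1637 in stem and 71.4 to 92.2 in leaf. For the 4 measured of 5 leaf genes it was 2577 to 4177 in flower, 7063 to 10164 in stem and 14152 to 14939 in leaf. Stem GH 1 stood apart from the other arrays in RNA quality: the actin control gave a 3' over 5' ratio of 19.6, against 0.781 to 2.90 elsewhere. This ratio also differed by organ. It was 1.83 to 2.90 in flower, 1.22 to 1.37 on the other stem arrays and 0.781 to 1.21 in leaf. Flower comparisons therefore cannot be told apart from this ratio by design. The 5S ribosomal RNA, which like plastid mRNA has no stable poly(A) tail, read 78.1 to 139 in flower, 49.4 to 196 in stem and 1.73 to 6.47 in leaf. All leaf values lay under the limit of 28.1 used below for dim signals. The part of the 5S ribosomal RNA in the results below was not tested.

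Stem carried the highest signals of these genes in most cases. The mean log2 signal of the 33 genes was 8.91 to 9.62 on the flower arrays, 9.50 to 10.31 on the stem arrays, where stem GH 1 was the lowest and the rest began at 10.19, and 8.32 to 9.56 on the leaf arrays. All 33 passed the filter on dim signals, which asked for at least 3 of the 11 arrays above a signal of 28.1. Of these, 30 lay above that limit on every array. The exceptions were petG, atpI and rbcL, each with 1 of the 3 leaf arrays under it.

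**Figure D1:**
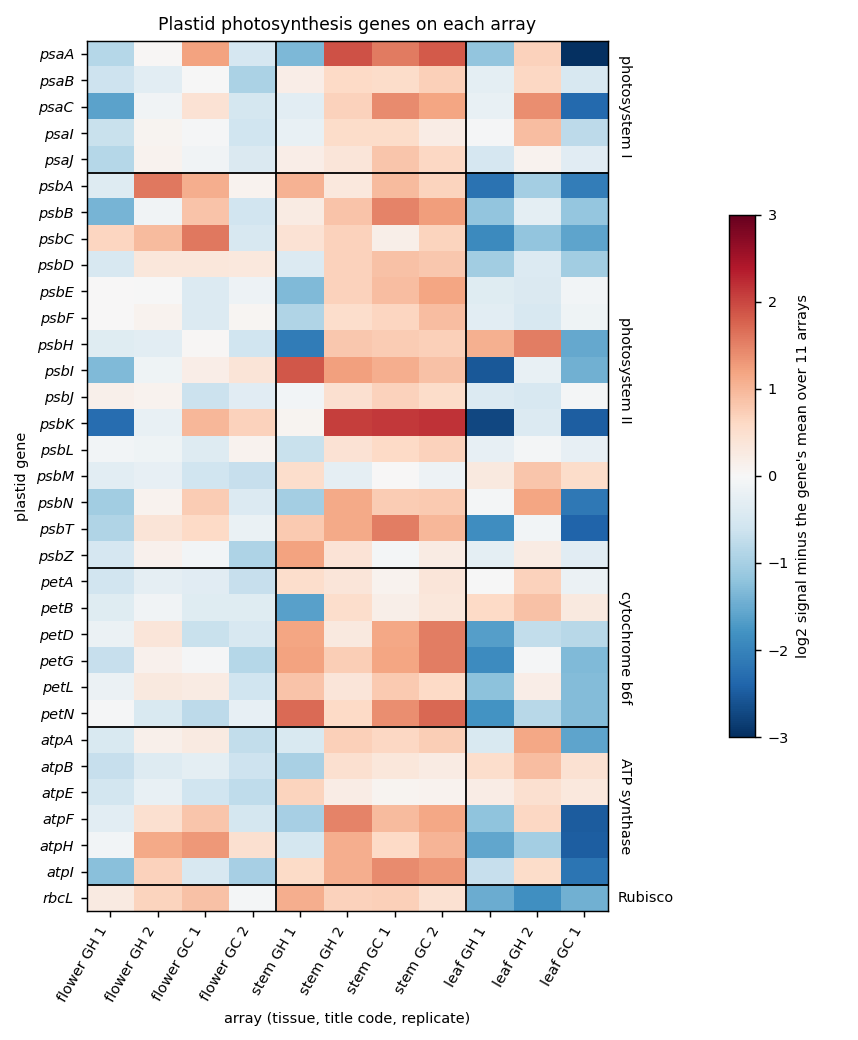
Log2 signal of each of the 33 plastid genes (rows, grouped by complex) on each of the 11 arrays (columns, grouped by organ), relative to that gene's mean over the 11 arrays. Most rows are highest on the stem arrays, and stem GH 1 and leaf GH 2 differ from the other arrays of their organ in many rows.

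The first comparison set stem against leaf. Of the 33 genes, 16 were higher in stem, none was lower and 17 did not pass the test (limma, adjusted p under 0.05, all 11 arrays in 1 fit with the title code as a covariate). Over all 15718 probe sets tested, 17.9% were higher in stem and 21.6% lower. The median log2 difference was 1.13 over the 33 genes and -0.07 over all probe sets. For the 33 genes it was 0.71 without leaf GC 1, 0.53 within the GH arrays and 2.02 within the GC arrays. By complex, the genes higher in stem were 1 of 5 in photosystem I, 8 of 15 in photosystem II, 4 of 6 in cytochrome b6f, 2 of 6 in ATP synthase, and rbcL. The share in photosystem I, 20%, was near the 17.9% of all probe sets.

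rbcL encodes the large, catalytic subunit of Rubisco, and its mRNA is known as one of the most abundant of green leaves. Its probe set read 106, 138, 161 and 84.3 in flower (here and below in the order GH 1, GH 2, GC 1, GC 2), 186, 141, 144 and 119 in stem, and 31.2, 24.5 and 32.2 in leaf (in the order GH 1, GH 2, GC 1). The leaf arrays lay near the dim limit, below every array of the other organs. The means were 122 ± 34.1 in flower (SD, n = 4), 147 ± 28.0 in stem (SD, n = 4) and 29.3 ± 4.18 in leaf (SD, n = 3). The log2 difference was 2.33 ± 0.25 (SE, limma adjusted p = 2.69e-05) for stem minus leaf and 2.04 ± 0.25 (limma adjusted p = 6.37e-05) for flower minus leaf. Flower and stem did not differ beyond their spread (-0.29 ± 0.23, limma adjusted p = 0.331). A signal counts hybridised RNA in the units of 1 probe set, so the level of rbcL cannot be set against that of another gene.

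psbA, which encodes the D1 protein of the photosystem II reaction centre, was lowest in leaf as well. It read 207, 810.2, 581 and 291 in flower, 558, 338, 523 and 432 in stem, and 58.2, 134 and 64.8 in leaf. All flower and stem arrays lay above all leaf arrays, and flower was the more variable of the first 2 organs. The means were 472 ± 276 in flower, 463 ± 98.7 in stem and 85.7 ± 42.0 in leaf (SD, n = 4, 4 and 3). The log2 difference was 2.52 ± 0.44 for stem minus leaf (limma adjusted p = 8.41e-04) and 2.37 ± 0.44 for flower minus leaf (limma adjusted p = 0.00137). For flower minus stem it was -0.15 ± 0.41 (limma adjusted p = 0.80). rbcL and psbA were the genes called in flower minus leaf under all 26 alternative settings, and with petD, petN and psbI also the genes called in stem minus leaf under all 26.

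In photosystem II, psbK had the largest difference between stem and leaf of all 33 genes. It encodes a small membrane subunit next to the inner antenna. Its signals were 299.8, 1266, 2923 and 2360 in flower, 1569, 6239, 6376 and 6587 in stem, and 222, 1115 and 265 in leaf. The stem arrays were close together except for stem GH 1, the low one. The log2 difference for stem minus leaf was 3.32 ± 0.74 (limma adjusted p = 0.00377). psbI, its neighbour in the genome and another small subunit, read 581 to 1902 in flower, 2703 to 5325 in stem and 249.6 to 1253 in leaf, so that stem did not overlap with the other organs. It differed by 2.64 ± 0.51 (limma adjusted p = 0.00163).

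Among the larger photosystem II proteins, psbC and psbB, the inner antenna proteins, were higher in stem by 2.08 ± 0.38 and 1.75 ± 0.42 on the log2 scale (limma adjusted p = 0.00116 and 0.00600). psbD, the D2 reaction centre protein, was higher by 1.27 ± 0.30 (limma adjusted p = 0.00563). psbC read 253 to 1073 in flower, 405 to 575 in stem and 95.04 to 157 in leaf, and psbB 123 to 581 in flower, 383 to 909 in stem and 143 to 262 in leaf. psbD read 409 to 732 in flower, 430.3 to 1059 in stem and 278 to 431 in leaf. The stem array that touched the leaf range was stem GH 1. The small subunits psbT (2.57) and psbJ (0.72) completed the 8 genes that were higher. psbT read 131 to 369.9 in flower, 419.9 to 702 in stem and 46.1 to 231 in leaf. The cytochrome b-559 genes psbE (0.58) and psbF (0.56), psbL (0.40), psbN (0.79, an assembly factor in tobacco) and psbZ (0.66) did not pass.

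psbM and psbH also missed the threshold in stem minus leaf. psbM, a small subunit at the dimer interface, read 6208, 6526, 5114 and 4790 in flower, 11063, 6437, 7794 and 6987 in stem, and 9473, 13819 and 11357 in leaf. Its log2 difference for stem minus leaf was -0.50 ± 0.20 (limma adjusted p = 0.0680). Without stem GH 1 it was lower in stem, with a log2 difference of -0.66 (limma adjusted p = 0.0104). psbH, a phosphoprotein subunit, read 978, 1016, 1286 and 833 in flower, 296, 2219, 2133 and 2056 in stem, and 2650, 3657 and 435 in leaf. A single array lay far below the others in stem (GH 1) and in leaf (GC 1), and the difference of -0.28 ± 0.78 had no settled sign: it was 0.67 without stem GH 1.

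In photosystem I, 1 of 5 genes passed, the small subunit psaJ (0.72 ± 0.24, limma adjusted p = 0.0286). It kept this call in 19 of the 26 alternative settings. psaA, which with psaB forms the reaction centre, read 238, 442, 986 and 303 in flower, 169, 1607, 1268 and 1528 in stem, and 188, 699.9 and 43.0 in leaf. The other 3 stem arrays lay above every leaf array, while stem GH 1 lay within the leaf range. The log2 difference for stem minus leaf was 2.25 ± 0.96 (limma adjusted p = 0.0827). Without stem GH 1 it was 3.24 and passed (limma adjusted p = 0.00945). psaB differed by 0.58, psaC, the iron-sulphur subunit, by 1.13, and neither passed. psaB read 1439 to 2767 in flower, 3215 to 4551 in stem and 1981 to 4296 in leaf, with leaf GH 2 the array that reached into the stem range. psaC read 75.5 to 307 in flower, 182 to 606 in stem and 45.1 to 599 in leaf.

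psaI, a small photosystem I subunit, had the smallest stem minus leaf difference of its complex. It read 937, 1577, 1449 and 996 in flower, 1290, 2202, 2182 and 1755 in stem, and 1465, 2827 and 871 in leaf. The 3 organs overlapped, and none of the differences between organs passed (0.28 ± 0.34 for stem minus leaf, limma adjusted p = 0.552).

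In the cytochrome b6f complex the small subunits and subunit IV were higher in stem. petN, a small subunit, read 153, 114, 90.5 and 132 in flower, 509, 238, 411 and 516 in stem, and 45.2, 87.0 and 63.1 in leaf. Every stem array lay above every flower and leaf array. The log2 difference for stem minus leaf was 2.66 ± 0.31 (limma adjusted p = 5.04e-05). petG (2.25 ± 0.41), petD, which encodes subunit IV (2.10 ± 0.34), and petL (1.47 ± 0.33) also passed, with limma adjusted p-values of 0.00102, 5.06e-04 and 0.00395. petG read 47.6 to 93.4 in flower, 143 to 250.2 in stem and 23.1 to 84.2 in leaf. petD read 79.4 to 162 in flower, 153 to 365 in stem and 39.6 to 75.6 in leaf, and petL 324 to 597 in flower, 622 to 875 in stem and 197 to 555 in leaf.

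The 2 cytochrome genes of that complex did not pass. petA, the gene of cytochrome f, read 1920, 2357, 2255 and 1757 in flower, 4093, 3670, 3063 and 3649 in stem, and 2812, 4577 and 2534 in leaf. Stem lay within the leaf range, at 0.21 ± 0.19 on the log2 scale (limma adjusted p = 0.401). petB, the gene of cytochrome b6, read 4233 to 5092 in flower, 1781 to 7878 in stem and 6713 to 10127 in leaf. It differed by -0.76 ± 0.41 (limma adjusted p = 0.169), and by -0.16 without stem GH 1.

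In ATP synthase, the genes of the membrane part had the larger differences. atpH, which encodes the proton-carrying ring subunit, read 445, 1038, 1157 and 659 in flower, 324, 1002, 705 and 952 in stem, and 159.8, 233 and 84.7 in leaf. Each flower and stem array lay above each leaf array. The log2 difference for stem minus leaf was 2.22 ± 0.46 (limma adjusted p = 0.00256). atpI, another membrane subunit, read 29.7 to 116 in flower, 107 to 191 in stem and 15.5 to 104 in leaf. It was higher by 1.96 ± 0.56 (limma adjusted p = 0.0156), and atpF, of the stalk, differed by 1.70 ± 0.71 (limma adjusted p = 0.0782). atpF passed without stem GH 1, at 2.46 (limma adjusted p = 0.00768).

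The soluble head subunits did not pass in stem minus leaf. atpB, the catalytic beta subunit, read 4098, 5071, 5372 and 4287 in flower, 3344, 9224, 8297 and 7788 in stem, and 9502, 12494 and 9100 in leaf. Its log2 difference was -0.65 ± 0.30 (limma adjusted p = 0.110). atpE, the epsilon subunit, read 4840, 6107, 4676 and 4196 in flower, 11319, 8223, 7534 and 7611 in stem, and 8240, 9848 and 8796 in leaf, a difference of -0.02 ± 0.16 (limma adjusted p = 0.927). atpA, the alpha subunit, read 1453 to 2935 in flower, 1776 to 4055 in stem and 815 to 5402 in leaf, and differed by 0.75 ± 0.53 (limma adjusted p = 0.283).

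**Figure D2:**
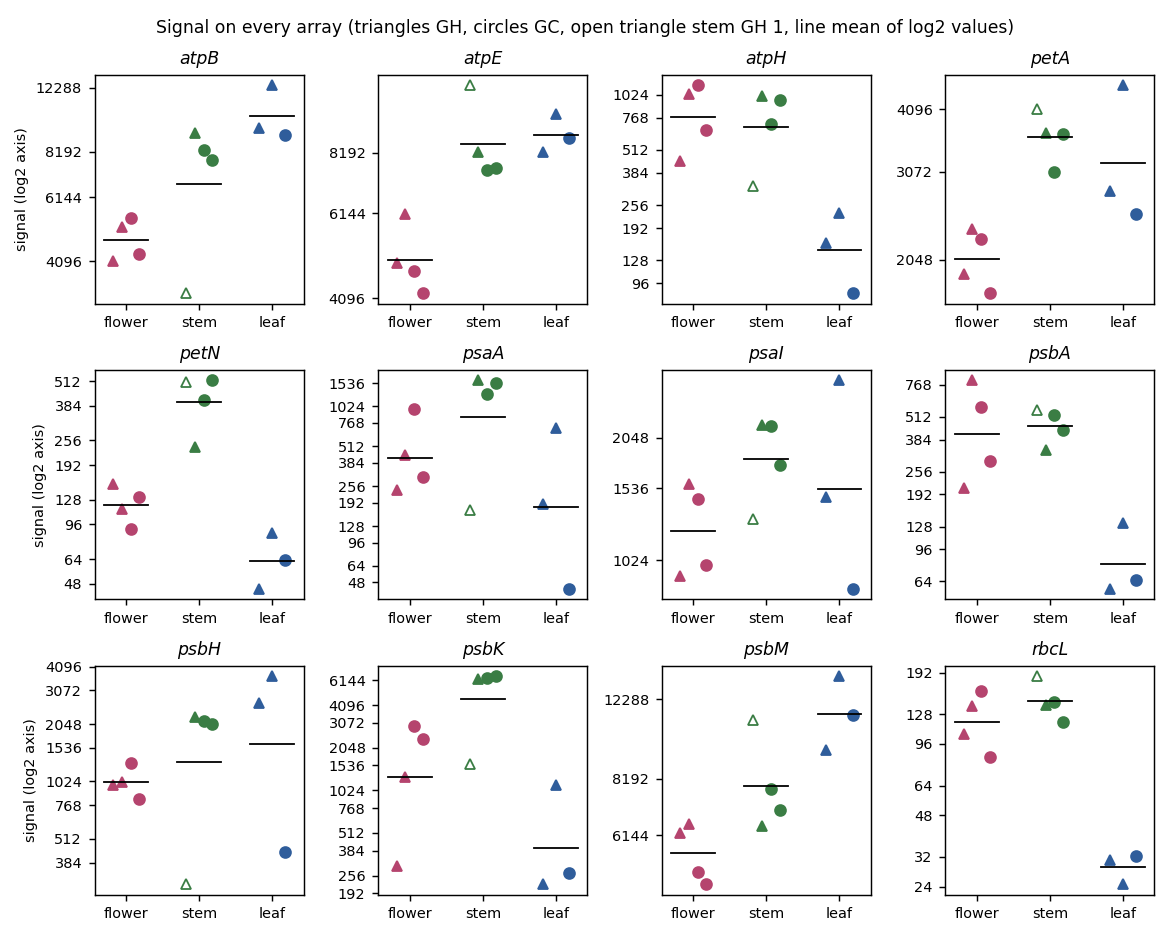
Signal (log2 axis, one panel per gene) of 12 of the plastid genes on the flower, stem and leaf arrays, each point being 1 array and marked by its code. rbcL, psbA, petN and atpH are lower on all leaf arrays than on all stem arrays, whereas atpB and psbM are lower on all flower arrays than on all leaf arrays.

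The number of genes higher in stem than in leaf moved with the arrays used. It was 6 of 33 within the GH arrays, where 12.3% of all probe sets were higher, and 23 within the GC arrays, which hold 1 leaf array and where 9.92% were higher. Leaving out each array in turn gave 13 to 21, with 14.5% to 18.2% of all probe sets higher. With the 3' over 5' ratio as a covariate it was 25, where 17.2% of all probe sets were higher. Without both stem GH 1 and leaf GH 2 it was 26, where 15.9% were. The covariate was the mean log2 3' over 5' ratio of the actin, GAPDH and ubiquitin controls. It was 2.13 on stem GH 1 and -0.24 to 0.90 elsewhere, so every fit with it leans on that array.

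The second comparison set flower against leaf. It shares the leaf arrays with the first, so the 2 are not independent. Of the 33 genes, 7 were higher in flower, 4 were lower and 22 did not pass, and over all probe sets 21.3% were higher and 14.4% lower. The share of the 33 genes that passed was thus near that of all probe sets. The median log2 difference was 0.22 over the 33 genes and 0.16 over all probe sets. That of the 33 genes had no settled size or sign. It was -0.01 without leaf GC 1, 0.07 without flower GH 2, 0.64 without flower GH 1 and 0.86 without leaf GH 2. With the 3' over 5' ratio as a covariate it was 0.89.

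The 7 genes higher in flower were spread over 4 complexes. atpH was highest at 2.39 ± 0.46 on the log2 scale (limma adjusted p = 0.00177), followed by psbA, psbC (2.25 ± 0.38, limma adjusted p = 7.37e-04) and rbcL. psbT (1.43), petN (0.93) and psbD (0.91) were higher by less, with limma adjusted p-values of 0.0414, 0.0342 and 0.0348. All 7 were also among the 16 that were higher in stem than in leaf.

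The 4 genes lower in flower than in leaf were atpB (-1.16 ± 0.30, limma adjusted p = 0.0101), psbM (-0.99 ± 0.20, limma adjusted p = 0.00235), atpE (-0.82 ± 0.16, limma adjusted p = 0.00188) and petA (-0.59 ± 0.19, limma adjusted p = 0.0271). After quantile normalization none of the 4 passed, and their differences were -0.39 (atpB), -0.19 (psbM), -0.020 (atpE) and -0.12 (petA). No photosystem I gene passed in either direction. The number higher was 3 within the GH arrays, where 13.5% of all probe sets were higher, and 13 within the GC arrays, which hold 1 leaf array and where 9.40% were. It was 4 without leaf GC 1, leaf GH 1, flower GC 2 or flower GH 2, each left out alone, and 12 without leaf GH 2. Of all probe sets, 16.8% to 18.9% were higher where it was 4, and 16.6% where it was 12. The number lower was 0 within the GH arrays and 4 within the GC arrays, where 10.5% and 7.22% of all probe sets were lower.

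The third comparison set flower against stem, organs of one age. None of the 33 genes was higher in flower, 14 were lower and 19 did not pass, where over all probe sets 25.5% were higher and 15.4% lower. The log2 difference was negative for 31 of the 33 genes, with a median of -0.59, against 0.17 over all probe sets. The genes lower in flower were 2 of 5 in photosystem I, 6 of 15 in photosystem II, 4 of 6 in cytochrome b6f and 2 of 6 in ATP synthase.

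psbK and petN differed most. For psbK, lower in flower, the log2 difference was -1.82 ± 0.68 (limma adjusted p = 0.0492), and for petN it was -1.73 ± 0.28 (limma adjusted p = 5.31e-04). The stem and flower ranges overlapped for psbK through stem GH 1, and did not overlap for petN. atpI (-1.60), petG (-1.54), psbI (-1.49), petD (-1.28) and psbB (-1.26) followed. psaB (-0.99), psaJ (-0.83), petA (-0.81), atpE (-0.80), psbZ (-0.80) and psbJ (-0.59) were lower by less, and psbM (-0.49) passed narrowly, with a limma adjusted p of 0.04996. The genes with a positive difference, psbC and atpH, were 0.18 and 0.17 higher in flower on the log2 scale and did not pass.

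The count of 14 also moved with the arrays. It was 0 within the GH arrays, where 7.56% of all probe sets were lower in flower, and 19 within the GC arrays, where 11.3% were. It was 8 without flower GC 2, 8 without flower GH 1, 9 without stem GC 1 and 17 without stem GH 1. Of all probe sets, 13.6%, 13.7%, 13.9% and 16.0% were lower in flower in these fits. No gene was called in all 26 alternative settings of this comparison. The median stayed negative within both codes, at -0.54 in GH and -0.89 in GC.

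**Figure D3:**
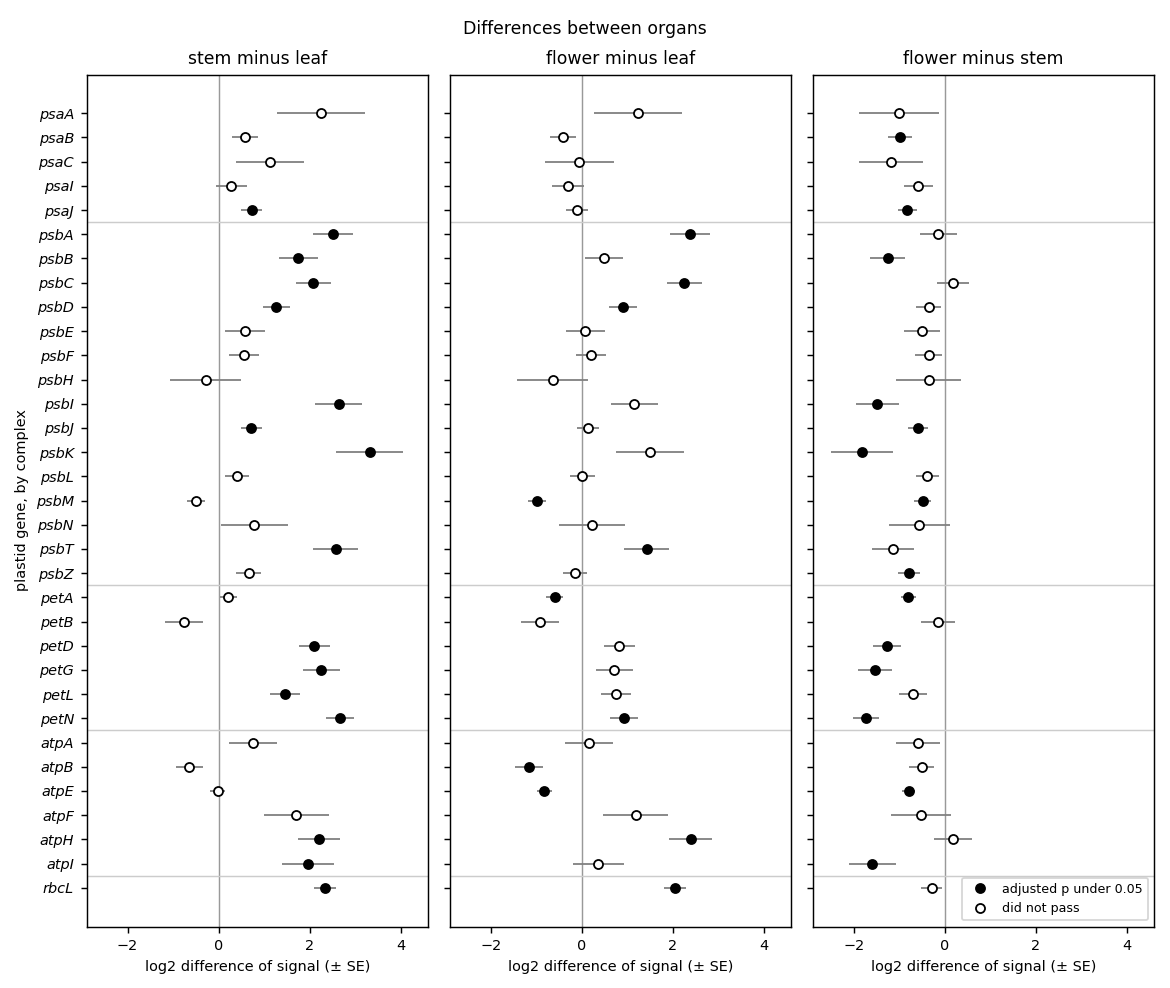
Log2 differences between organs for the 33 plastid genes (rows, by complex), with bars for the model's SE and filled points for a limma adjusted p under 0.05. Stem minus leaf has 16 filled points, all positive, flower minus leaf has 7 positive and 4 negative, and flower minus stem has 14, all negative.

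The spread among arrays of one organ was, at the median, larger for these genes than for all probe sets. The median SD of the log2 signal over the arrays of an organ was 0.42 for the 33 genes and 0.27 for all probe sets in flower, 0.53 and 0.36 in stem, and 0.51 and 0.25 in leaf. In stem without stem GH 1 it was 0.19 for the 33 genes and 0.28 for all probe sets. On stem GH 1, 14 of the 33 genes were at least 2-fold below the mean of the other 3 stem arrays and 1 was at least 2-fold above, where 9.19% of all probe sets were below and 5.71% above.

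The genes did not move together on stem GH 1. psaA (-3.11), psbH (-2.85), psbE (-2.26), atpF (-2.19), psbK (-2.03) and petB (-1.97) lay furthest below, on the log2 scale. psbZ (1.00), psbI (0.80), psbM (0.65) and atpE (0.54) lay above. The part of this array's 3' over 5' ratio in these differences was not tested.

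Leaf GH 2 differed the other way. On it 16 of the 33 genes were at least 2-fold above the mean of the other 2 leaf arrays and none was at least 2-fold below, where 3.61% of all probe sets were above and 2.95% below. psaA (2.96), psaC (2.67) and atpF (2.48) lay furthest above, while rbcL lay at -0.37 on the log2 scale. Its mean log2 3' over 5' ratio was -0.24, the lowest of the 11 arrays. On leaf GC 1, 10 of the 33 genes were at least 2-fold below the other leaf arrays (5.54% of all probe sets), and on flower GH 1, 10 were at least 2-fold below the other flower arrays (2.24% of all probe sets).

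**Figure D4:**
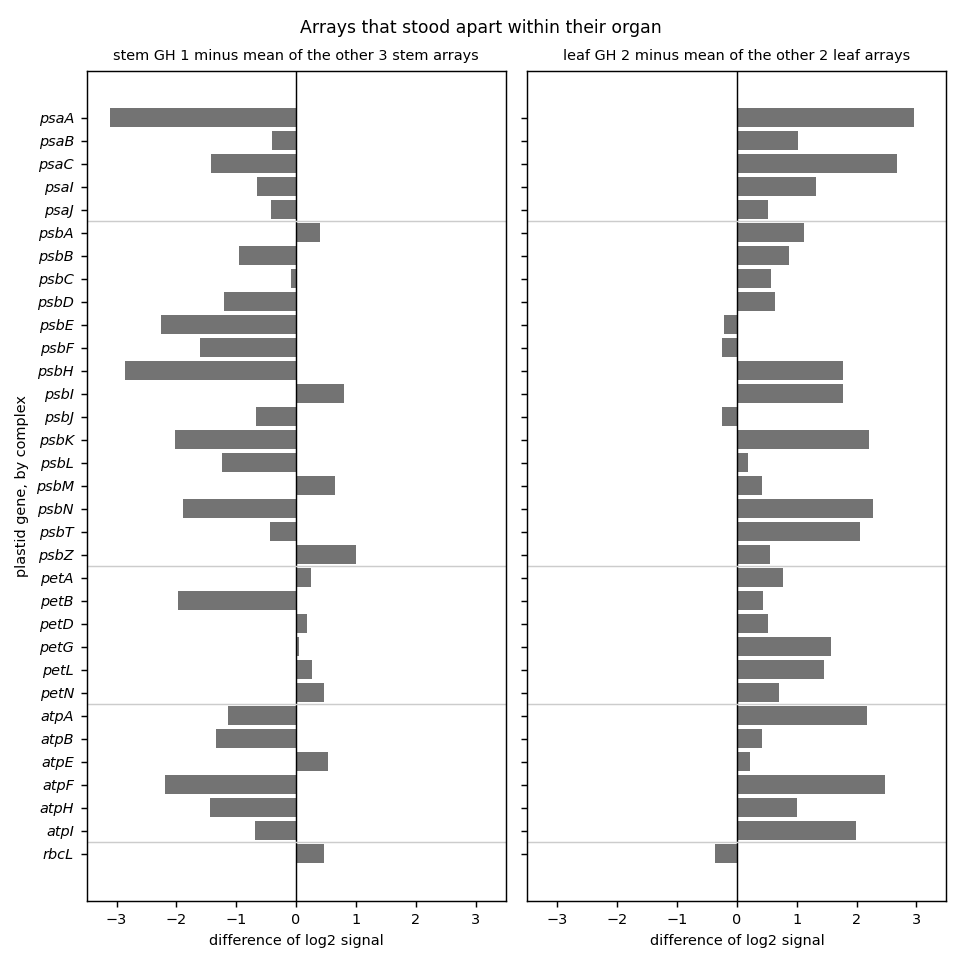
Log2 signal of each of the 33 plastid genes on stem GH 1 minus the mean of the other 3 stem arrays (left), and on leaf GH 2 minus the mean of the other 2 leaf arrays (right). psaA has the longest bar in both panels, at -3.11 on stem GH 1 and 2.96 on leaf GH 2.

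The code was compared over the organs, GH minus GC with organ as a covariate. None of the 33 genes passed, none had an unadjusted p under 0.05, and the lowest limma adjusted p was 0.489. Over all probe sets 0.00636% were called, which is 1 of 15718. The log2 differences ran between -0.95 (psbK) and 0.50 (atpI). The median difference was 0.03 in flower, with 19 genes positive and 14 negative, and -0.52 in stem, with 7 positive and 26 negative. In leaf, where a single GC array stands against 2 GH arrays, it was 0.42, with 27 positive and 6 negative.

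The GH effect in stem minus that in flower was tested as a difference of its own. None of the 33 genes passed, and 0% of all probe sets did. Of the 33, psbE (-1.66 ± 0.69), psbF (-1.21), psbJ (-1.06) and petD (-1.28) had an unadjusted p under 0.05, as had 761 of the 15718 probe sets, and the lowest limma adjusted p was 0.932. Without stem GH 2, where stem GH 1 was the lone stem GH array, 5 of the 33 genes were lower, as were 1.23% of all probe sets. That array then has no replicate, and its spread was assumed to be that of the other groups.

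Genes of one transcription unit can be copied as one RNA, and their signals were set side by side. In the psbE unit the 4 genes psbE, psbF, psbL and psbJ lay close, with log2 differences of 0.40 to 0.72 for stem minus leaf and an SD of 0.13, against 1.09 over all 33 genes. They also lay close for flower minus leaf, at 0.01 to 0.20. In the unit of psaI and petA, these 2 genes differed by 0.28 and 0.21, while accD (1.68), ycf4 (1.75) and cemA (-0.02), the other genes of the unit, ranged more widely, and none of the 5 passed. psbK and psbI, a pair of neighbours, were both high, at 3.32 and 2.64.

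The psbB unit was the widest for stem minus leaf. Its genes psbB (1.75), psbT (2.57) and petD (2.10) were higher in stem than in leaf, whereas psbH (-0.28) and petB (-0.76), which lie between psbT and petD, were not. The SD over the 5 genes was 1.5. Without stem GH 1 psbH was at 0.67 and petB at -0.16, and with the 3' over 5' ratio as a covariate psbH was higher in stem, at 1.17 (limma adjusted p = 0.0411). For flower minus leaf the psbD unit was wider (-0.14 to 2.25) than the psbB unit (-0.92 to 1.43). In the atpI unit atpI, atpH and atpF differed by 1.70 to 2.22, and atpA, at the other end, by 0.75. In the psaA unit psaA differed by 2.25 and psaB by 0.58. In the psbD unit psbD differed by 1.27, psbC by 2.08 and psbZ by 0.66. Whether a probe set reports a processed RNA or a precursor was not tested.

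**Figure D5:**
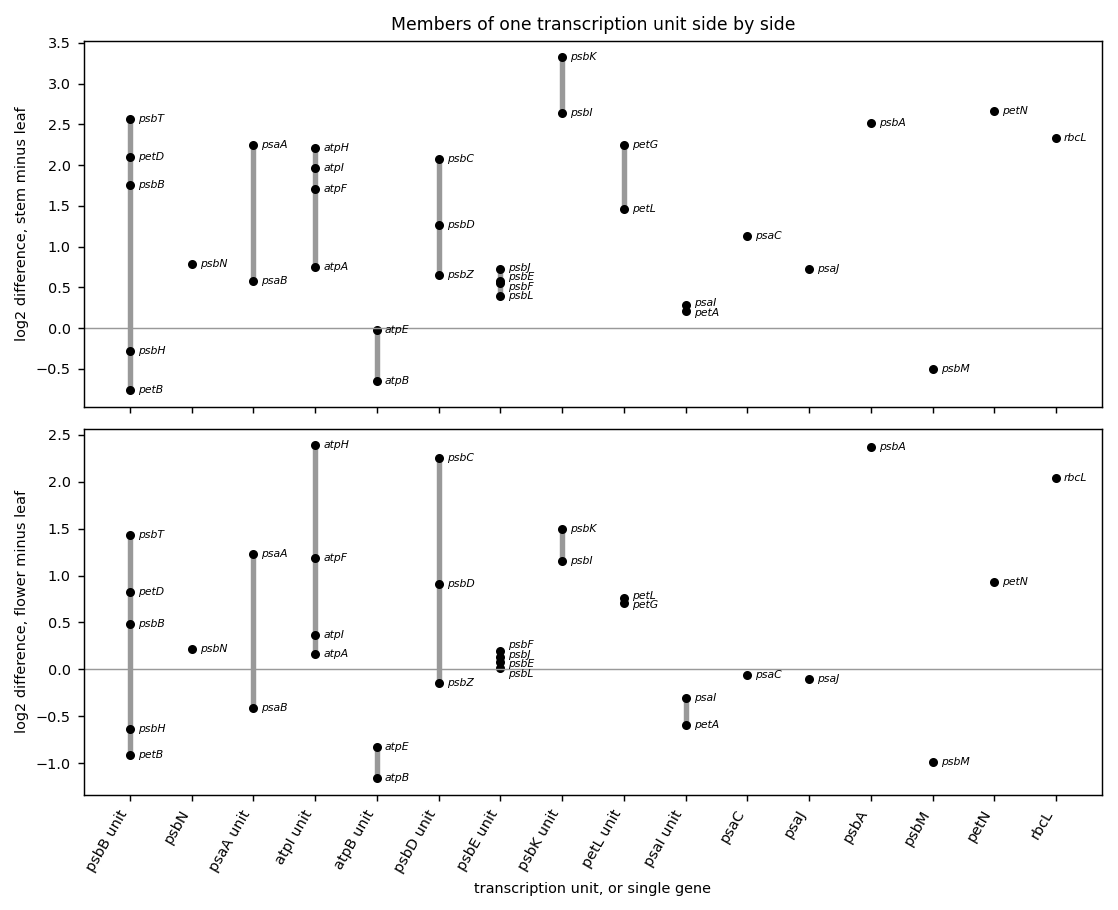
Log2 differences for stem minus leaf (top) and flower minus leaf (bottom) of the 33 plastid genes, placed by transcription unit, each point being 1 gene and each grey bar the range of its unit. The psbE unit spans 0.40 to 0.72 in the top panel and the psbB unit spans -0.76 to 2.57.

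Other genes of the chloroplast were set beside these. Over all probe sets 17.9% were higher and 21.6% lower in stem than in leaf, and 21.3% and 14.4% in flower than in leaf. For flower minus stem these shares were 25.5% and 15.4%. Of the 10 ndh genes, which encode the plastid NADH dehydrogenase-like complex of cyclic electron flow, 5 were higher and none lower in stem than in leaf, none was higher and 2 lower in flower than in leaf, and none was higher and 7 lower in flower than in stem. Their median log2 differences were 0.78, -0.35 and -1.21 in these comparisons. The 5 were ndhG (3.38, limma adjusted p = 2.61e-04), ndhH (2.74), ndhF (2.65), ndhE (1.86) and ndhJ (1.19), named after their values were seen, and the 2 were ndhC (-1.36) and ndhI (-0.97). The difference of ndhH had an SE of 0.93 (limma adjusted p = 0.0341). Its mean signals were 117 in stem and 45.4 in leaf, with an SD of 40.1 in leaf. The size for ndhH thus rests on leaf arrays that lay far apart. For ndhF, flower minus stem was -3.02 (limma adjusted p = 4.14e-05), where its mean signal in flower, 27.9, lay under the dim limit and 1 of the 4 flower arrays was above it. Of the 26 remaining plastid genes, those of the ribosome, the RNA polymerase and other functions, 8 were higher and 1 lower in stem than in leaf. In flower minus leaf 5 were higher (19.2%) and 3 lower (11.5%), and in flower minus stem none was higher and 4 were lower (15.4%). The shares higher and lower in flower minus leaf, and lower in flower minus stem, were near those of all probe sets. rpoB, a polymerase subunit, was dim on all 3 leaf arrays and was at least 4.46-fold higher in stem than in leaf (limma adjusted p = 3.00e-04), measured against that limit. Its mean signals were 132 in stem and 17.3 in leaf. Also named after their values were seen, rps3 was the gene lower in stem (-0.85), and rpl14 (2.18), rpl16 (1.90), rpl20 (1.51), rps15 (1.39) and rpoB (at least 1.55-fold, against the limit) were those higher in flower than in leaf. Lower in flower were matK (-0.75), rpl32 (-0.67) and rps3 (-0.51) against leaf, and rps14 (-2.27), rpoB (-1.52), rps19 (-1.16) and rpl32 (-0.50) against stem. rpl and rps genes encode ribosomal proteins, and matK a splicing factor. rps15 was above the dim limit on 1 of the 3 leaf arrays and rps14 on 2 of the 4 flower arrays.

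The mitochondrial genome, the other organelle genome of the cell, was measured by 23 probe sets, of which 19 were tested. In stem minus leaf 11 of the 19 were higher and none lower (17.9% and 21.6% of all probe sets). In flower minus leaf 9 were higher and none lower (21.3% and 14.4% of all probe sets). In flower minus stem none was higher (25.5% of all probe sets) and 1 was lower (15.4%), ccb203, which encodes a cytochrome c assembly protein. It lay under the dim limit on every flower array, with mean signals of 9.63 in flower and 28.7 in stem, so no fold is given. Their median log2 differences were 0.85, 0.82 and -0.14. Stem minus leaf was positive for all 19, some of which report the same gene, such as nad1, a subunit of respiratory complex I. Among those higher in stem than in leaf, nad1 and nad5 each came up more than once. Mean leaf signals were below 28.1 there for nad6 (20.2), nad1 (19.0, 21.3 and 24.8) and nad5 (16.3 and 25.6). The counts against leaf are therefore not counts of genes, and they rest in part on dim leaf signals.

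The nuclear subunits found for the same complexes were mostly lower in stem and flower than in leaf. They were searched by gene symbol among probe sets of 1 gene, and most listed subunits were not found. Of the 6 found, 4 were lower and none higher in stem than in leaf (21.6% and 17.9% of all probe sets). In flower, 5 were lower and none higher than in leaf (14.4% and 21.3% of all probe sets). Against stem, 5 were lower in flower and 1 higher (15.4% and 25.5% of all probe sets). PSAE-1, a photosystem I subunit at the ferredoxin side, had a signal of 1537 ± 211 in flower, 3696 ± 368 in stem and 5386 ± 580.0 in leaf (SD, n = 4, 4 and 3). Its log2 difference was -0.58 ± 0.13 for stem minus leaf (limma adjusted p = 0.00362) and -1.85 ± 0.13 for flower minus leaf (limma adjusted p = 1.26e-06). PSBY, of photosystem II, differed by -1.01 and -2.08, PSAN, of photosystem I, by -0.74 and -1.73, and ATPC1, the gamma subunit of ATP synthase, by -0.83 and -1.56, and all passed. PSBW, of photosystem II, passed for flower minus leaf (-1.16) and not for stem minus leaf (-0.35, limma adjusted p = 0.0905). The gene higher in flower than in stem, ATPC2, had mean signals of 31.3 in flower, 15.9 in stem and 25.2 in leaf, near or under the dim limit.

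Nuclear genes listed as acting on plastid RNA or on assembly of these complexes were searched by gene symbol among probe sets of 1 gene. The search found LPA66, an editing factor of psbF, and HCF101, a scaffold for iron-sulphur clusters. Most listed genes were not found, so LPA66 and HCF101 do not stand for the list. Both were lower in stem than in leaf, with log2 differences of -1.02 and -0.65 (limma adjusted p = 0.00333 and 0.00308). HCF101 was also lower in flower than in leaf (-1.16, limma adjusted p = 6.25e-05).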

How the data were processed

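Each deposited file holds an unlogged intensity per probe set, made with MAS5 per the submitters' processing notes. For its version, scaling target, labelling method and detection calls, the sources used here give nothing. The trimmed mean of every array was 100.01 (lowest and highest 2% left out), so a fixed scaling had been applied. Whether replicates were separate plants is not in the labels. Every p-value therefore sets a difference against the spread of these samples, which may be technical only. The number of arrays limits the precision.

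The deposited signals were taken to log2. Probe sets above the 40th percentile of all values (28.1) on at least 3 arrays were kept, 15718 of 22810. On all probe sets kept, lmFit and eBayes (with a trend) of limma 3.58.1 were run under R 4.3.3, with Benjamini-Hochberg adjustment over all of them. Organs were compared in a fit of all 11 arrays that held the title code fixed, the comparison of codes had organ as a covariate, and the difference of the GH effect used 1 mean per organ and code. Log2 differences carry the SE of the model.

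Gene names come from the platform annotation, and genes were placed on the plastid genome through RefSeq, assembly TAIR10.1, used only for names and for which genes neighbour each other. The members and lists were chosen with earlier results of these data known. Full values are given for rbcL and psbA, for the gene with the largest and the smallest stem minus leaf difference in each complex, and for the 2 largest rises and falls called in the other comparisons. The fit was also tested on simulated data, with 200 changed probe sets per comparison. There it found 30% to 49% of 2-fold and 66% to 81% of 4-fold changes in the organ comparisons, with 3.82% to 5.77% false calls. The simulated noise was independent between probe sets, and no other probe set differed between organs. These data differ in both respects, so the rates check the code and do not give the power or false calls here. Alternatives covered scaling, the dim filter, a pseudocount, the trend, the covariate, a replicate block, single codes and left-out arrays.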

Additional observations from a re-analysis of the deposited data

Results flagged for a closer look

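In a group of 4 arrays, a gene was looked at again where its highest or lowest array stood far from the other 3. Of 66 groups tested (33 genes in flower and in stem), 10 met this, and 7 of the 10 concern stem GH 1. The cut-off marks about 1 in 20 groups of independent, normally spread values. These groups share their arrays, so the count cannot be set against that rate. On that array psaA read 169, against 1268 to 1607 on the other stem arrays, psbD 430.3 against 934 to 1059, and psbH 296 against 2056 to 2219. psbK read 1569 there against 6239 to 6587, petB 1781 against 6213 to 7878, atpA 1776 against 3736 to 4055, and atpB 3344 against 7788 to 9224. In flower, psbD read 409 on flower GH 1 against 719 to 732, psbF 1419 on flower GC 1 against 1908 to 2021, and petB 5092 on flower GH 2 against 4233 to 4256.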

How the results depend on the processing

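Each organ comparison was recomputed under 26 alternatives. The 16 genes higher in stem than in leaf became 25 with the 3' over 5' ratio as a covariate, 6 within the GH arrays and 26 without stem GH 1 and leaf GH 2, and 13 to 21 with 1 array left out. The 0 lower became 1 with a filter at the 60th percentile, 1 with the 3' over 5' covariate, 1 without stem GH 1 and leaf GH 2, and 0 to 1 with 1 array left out. The 7 higher in flower than in leaf became 4 with centring on the 75th percentile, 4 without the trend, 4 without stem GH 1 and leaf GC 1, 12 with the 3' over 5' covariate, 13 within GC, 3 within GH, 13 without stem GH 1 and leaf GH 2, and 4 to 12 with 1 array left out. The 4 lower became 0 with quantile normalization, 0 within GH, 6 without stem GH 1 and leaf GC 1, and 3 to 5 with 1 array left out. The 14 lower in flower than in stem became 8 with quantile normalization, 22 without stem GH 1 and leaf GC 1, 0 within GH, 24 without stem GH 1 and leaf GH 2, and 8 to 17 with 1 array left out. Shares of all probe sets moved as well, fits within GC against leaf aside. They were 12.3% to 22.2% higher and 14.3% to 27.6% lower in stem than in leaf. For flower minus leaf they were 13.5% to 24.9% higher and 9.86% to 19.0% lower. In flower minus stem 7.56% to 20.1% were lower. For the difference of the GH effect between stem and flower, 0 became 0 to 5 with 1 array left out. Leaving out stem GH 1 with leaf GH 2, and the left-out arrays for that last difference, were chosen after seeing the data. The cause of these moves was not tested, except that fits within a code hold fewer arrays.

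The replicate numbers did not pair the arrays: deviations of same-numbered arrays correlated at -0.07 to 0.07. With a replicate block, 16 genes were higher in stem than in leaf, 6 higher and 5 lower in flower than in leaf, 12 lower in flower than in stem, and 0 passed in the comparisons of the codes. Of all probe sets, 17.4% were higher in stem than in leaf in this fit. For flower minus leaf 20.8% were higher and 14.1% lower, and for flower minus stem 15.2% were lower.

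Scaling shifted all probe sets. For flower minus leaf the calls were 3354 higher and 2263 lower as deposited, 2781 and 2677 after quantile normalization, and 2648 and 2702 after centring. For flower minus stem they were 4008 and 2413, 3171 and 2958, and 3201 and 3060. The median over all probe sets for flower minus stem, 0.17 as deposited, was -0.01 after quantile normalization and 0.02 after centring, while that of the 33 genes was -0.41 and -0.74.

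Over the 26 alternatives the sign turned in at least 1 for 7 of the 33 genes in stem minus leaf, 15 in flower minus leaf and 10 in flower minus stem. For the genes with full values, 3, 3 and 5 of these, the turned values follow. For stem minus leaf, atpE was 0.21 after quantile normalization, 0.10 within GH and -0.14 to 0.085 with 1 array left out. psbH was 1.17 with the 3' over 5' covariate, 2.27 within GC, 1.09 without stem GH 1 and leaf GH 2, and -1.61 to 0.67 with 1 array left out, and psaI was -0.27 within GH and -0.21 to 0.69 with 1 array left out. For flower minus leaf, psaI was 0.036 after quantile normalization, 0.20 with the covariate, 0.46 within GC, 0.10 without stem GH 1 and leaf GH 2, and -0.80 to 0.10 with 1 array left out. psbH was 0.96 with the covariate and 1.25 within GC, and psaA was -0.16 within GH and -0.33 to 2.23 with 1 array left out. For flower minus stem, atpB was 0.0072, psbA 6.21e-04 and psbM 0.11 after quantile normalization, psbA was -0.51 to 0.24 with 1 array left out, and psbH was 0.30 within GH. atpH was -0.17 without stem GH 1 and leaf GC 1, -0.21 without stem GH 1 and leaf GH 2, and -0.23 to 0.47 with 1 array left out. Of all the genes whose sign turned, psbM was the one whose value had passed the test.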

Other observations

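The probe sets of 1 gene whose log2 signal followed the mean of the 33 genes most closely over the 11 arrays were listed by Pearson's r, as a description. They were AT5G59050 (0.952), ycf3 (0.928), AT3G01930 (0.923), accD (0.921) and AT5G42860 (0.906). ycf3, a photosystem I assembly factor, and accD, a subunit of acetyl-CoA carboxylase, are plastid genes outside the rule, and the others are nuclear loci. The points share their arrays and scaling, and organ differences enter the coefficient. AT5G59050 differed by 1.14 for stem minus leaf, 0.41 for flower minus leaf and -0.73 for flower minus stem on the log2 scale.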
